A study of Mus musculus with 14 samples.

Results

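The annexins are a family of proteins that bind acidic phospholipids of membranes when calcium is present. The 10 family members described here, Anxa1 to Anxa9 and Anxa11, were found by matching their symbols to the Ensembl identifiers of the deposited table, and all 10 are among its 46517 gene rows. RNA-seq was done on 14 untreated lung tumours from 2 mouse models of SCLC (small cell lung cancer), a malignancy with neuroendocrine features. In each model the floxed tumour suppressor genes Rb1 and Trp53 were deleted by adenovirus carrying Cre recombinase under the Cgrp promoter, a promoter of pulmonary neuroendocrine cells. RPM tumours (n = 11) also carried the Cre-activated Myc T58A allele, a stabilised form of the transcription factor gene Myc, and RPR2 tumours (n = 3) carried instead a floxed Rbl2 gene, which encodes p130. By the source names, 9 RPM tumours were LSL/LSL for the Myc allele, and RPM replicates 2 and 4 were LSL/+. The tumours were macro-dissected from the lung, so that a library can hold RNA of other lung cells, and the age of the mice is not given in the sources used here. Nothing in the labels says whether each tumour came from another mouse, and 2 pairs of RPM tumours (replicates 6 and 7, and replicates 10 and 11) share the number in their title. The p-values therefore measure the spread between these tumours, some of which may come from the same animal.

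Annexins share a core of repeated calcium-binding domains and differ in their amino-terminal tails, which bind other proteins such as those of the S100 family. They are known for linking membranes to each other and to the cortical actin skeleton, for exocytosis and endosome traffic, and for patching torn plasma membrane. Annexin A1 is also released from cells and dampens inflammation, and annexin A5 is widely used as a probe of phosphatidylserine on dying cells. In the lung, annexins are made by alveolar and airway epithelium, endothelium, macrophages and neutrophils.

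Promoters are shown for the 3 members whose RNA differed most between the models, Anxa1, Anxa4 and Anxa11, and for Anxa2, the most abundant member in RPM. The sequences are the 250 bases before the annotated start, from RefSeq on GRCm38.p6, which holds an entry for 8 of the 10 members, in 11 windows. Capitals mark GGGCGG or its reverse complement CCGCCC, the GC box, and TGANTCA, the site read by AP-1 factors. CACGTG, the E-box read by Myc with Max, was searched too, each motif on both strands.
Anxa1, chr19:20390672-20390921, minus strand: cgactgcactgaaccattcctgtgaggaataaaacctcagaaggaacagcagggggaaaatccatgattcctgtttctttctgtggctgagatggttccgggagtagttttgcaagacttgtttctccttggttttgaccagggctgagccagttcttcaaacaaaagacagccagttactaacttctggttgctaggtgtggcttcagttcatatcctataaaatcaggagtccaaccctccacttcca
Anxa4, chr6:86793585-86793834, minus strand, first annotated start: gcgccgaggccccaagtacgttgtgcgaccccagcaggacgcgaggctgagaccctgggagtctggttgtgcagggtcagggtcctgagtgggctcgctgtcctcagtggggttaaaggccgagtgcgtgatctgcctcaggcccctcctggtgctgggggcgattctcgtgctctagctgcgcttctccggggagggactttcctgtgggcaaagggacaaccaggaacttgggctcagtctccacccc
Anxa11, chr14:25841905-25842154, plus strand: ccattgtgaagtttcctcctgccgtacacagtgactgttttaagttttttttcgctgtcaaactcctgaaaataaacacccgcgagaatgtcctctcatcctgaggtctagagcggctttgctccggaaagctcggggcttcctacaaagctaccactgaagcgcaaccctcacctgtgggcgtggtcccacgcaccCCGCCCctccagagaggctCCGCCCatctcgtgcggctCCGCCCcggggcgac
Anxa2, chr9:69453433-69453682, plus strand: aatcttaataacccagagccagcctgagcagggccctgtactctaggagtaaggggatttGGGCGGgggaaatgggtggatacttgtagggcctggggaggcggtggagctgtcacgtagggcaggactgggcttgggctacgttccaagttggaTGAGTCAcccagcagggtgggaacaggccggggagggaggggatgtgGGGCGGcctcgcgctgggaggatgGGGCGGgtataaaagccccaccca
The windows of Anxa1 and Anxa4 held none of the motifs. Anxa11 and Anxa2 held 3 GC boxes each, and Anxa2 also held TGAGTCA at 95 to 89 bases before the start (-95 to -89). Over the 11 member windows the GC box stood in 4, which belong to Anxa2, Anxa7 (both starts) and Anxa11, against 32.7% of all 32851 promoter windows. The windows of Anxa7 overlap, so that 1 site counts in both. It lies at -8 to -3 from the first start and at -200 to -195 from the second. TGANTCA stood in 1 of 11, against 6.75% of all windows, and CACGTG in 1 of 11, the second start of Anxa7, against 6.02%. The GC content of the printed windows was 46.0% for Anxa1, 64.8% for Anxa4, 58.0% for Anxa11 and 62.4% for Anxa2. These matches describe letters only.

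The estimated depth was 17.45 to 19.9 M reads in RPM and 21.3 to 22.7 M in RPR2, and 12994 to 14974 genes reached an FPKM (fragments per kilobase of transcript, scaled to the mapped reads) of 1. At that depth 3 reads on a transcript of 2 kb amount to at most 0.0860 FPKM, by counting error only, which is the limit on a value listed at 0. Myc stood at 48.4 to 384 FPKM in RPM (median 224), against 4.68, 6.83 and 13.6 in RPR2. Gene-level values of Rb1 (5.19 to 22.6 FPKM in RPM, against 39.4, 49.8 and 3.58 in RPR2), Trp53 (7.93 to 78.0 in RPM, against 10.3, 12.4 and 5.69) and Rbl2 (3.43 to 9.90 in RPM, against 3.58, 7.55 and 3.34) include exons outside the deleted parts and other cells, and do not check the deletions. RPR2 replicate 3 stood apart. Its neuroendocrine markers summed to 66.5 FPKM, against 3386 and 4408 in RPR2 replicates 1 and 2 and 294 to 1612 in RPM, and its alveolar type 2 markers summed to 51438 FPKM, against 1865 and 2389 in RPR2 replicates 1 and 2. Over all tumours 1 of 10 neuroendocrine markers was higher in RPM, Uchl1, and 1 was lower, Calca. Results that rest on RPR2 replicate 3 are given with and without it. The sample codes in the labels begin with another number in RPR2 than in RPM, so that the model and whatever these codes stand for cannot be told apart. The code of RPM replicate 9 also begins differently from those of the other RPM tumours.

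Most annexin genes were expressed at a lower level in RPM than in RPR2 tumours. Of the 10 members, 7 were lower (Anxa1, Anxa2, Anxa3, Anxa4, Anxa5, Anxa7 and Anxa11), 0 were higher, and Anxa6, Anxa8 and Anxa9 did not pass the test. The test was limma on log2(FPKM + 1) with Benjamini-Hochberg adjustment over all 15719 genes tested, at a threshold of 0.05. Against this, 41.2% of all genes tested passed, 18.4% higher and 22.8% lower in RPM. The groups did not overlap, with every RPM tumour below every RPR2 tumour, in 5 of 10 members (Anxa1, Anxa4, Anxa5, Anxa7 and Anxa11), against 13.6% of all genes tested. No member lay wholly above RPR2, against 11.1% of all genes tested. The median log2 difference (RPM minus RPR2) was -1.60 over the members and -0.06 over all genes tested. All 10 members passed the filter on low values. Without RPR2 replicate 3, 5 of 10 members were called lower, the same 5 whose groups did not overlap. The share of all genes called lower in that fit is not given here, so that this count stands without its background.

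**Figure D1:**
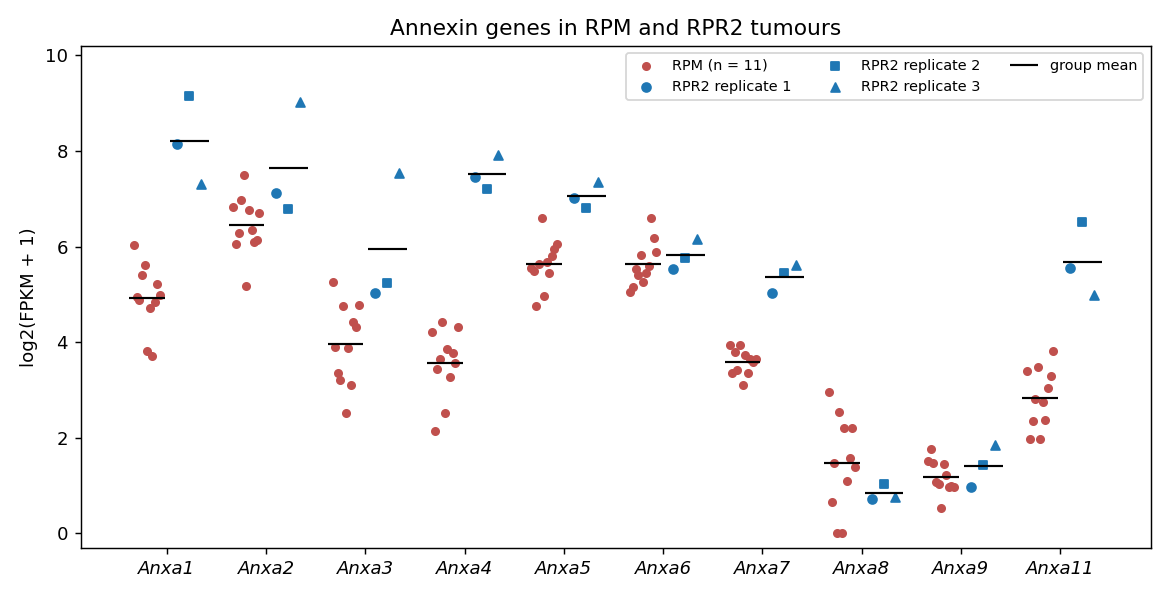
Levels of the 10 annexin genes as log2(FPKM + 1), with 1 point per tumour, RPM tumours (red) left of RPR2 tumours (blue, 1 symbol per replicate) for each gene, and a short line at each group mean. The 3 RPR2 tumours lie above all 11 RPM tumours for Anxa1, Anxa4, Anxa5, Anxa7 and Anxa11, and overlap them for the others.

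Anxa4 differed most. Annexin A4 is known as an annexin of epithelial cells that gathers beneath the plasma membrane when calcium rises. The gene (ENSMUSG00000029994) lies at chr6:86736840-86793584 on the minus strand of GRCm38. It stood at 3.42 to 20.6 FPKM in RPM (median 11.6), against 174, 147 and 241 FPKM in RPR2 replicates 1, 2 and 3. The groups were far apart: the lowest RPR2 tumour was 7.12 times the highest RPM tumour, RPM replicate 5. The mean was 12.0 ± 5.48 FPKM in RPM (SD, n = 11) and 187 ± 48.6 FPKM in RPR2 (SD, n = 3), and the log2 difference was -3.96 ± 0.402 (SE; limma, Benjamini-Hochberg adjusted p = 3.34e-06). An exact two-sided permutation test over the 364 ways to choose 3 of 14 tumours gave 0.00549, the smallest p this design allows.

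Anxa1 encodes annexin A1, a protein induced by glucocorticoids that acts on formyl peptide receptors and limits the recruitment of neutrophils. The gene (ENSMUSG00000024659) lies at chr19:20373428-20390944 on the minus strand. Its level was 12.1 to 64.7 FPKM in RPM (median 29.8), against 282, 570 and 158 FPKM in RPR2 replicates 1, 2 and 3. All RPM tumours were lower than all RPR2 tumours, and within RPR2 the lowest value was that of replicate 3. The mean was 32.5 ± 15.0 FPKM in RPM and 337 ± 211 FPKM in RPR2, a log2 difference of -3.28 ± 0.437 (limma, Benjamini-Hochberg adjusted p = 3.92e-05; exact permutation p = 0.00549). A non-coding gene on the opposite strand, 1500015L24Rik, spans the locus and was listed at 0 to 13.7 FPKM, and the strand setting of the authors' counting is not given in the sources used here.

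Anxa11 encodes annexin A11, which in human cells is known to tether RNA granules to lysosomes and to act in the last step of cell division. The gene (ENSMUSG00000021866) lies at chr14:25842156-25886804 on the plus strand. It stood at 2.93 to 13.1 FPKM in RPM (median 6.05), against 45.8, 90.9 and 30.9 FPKM in RPR2 replicates 1, 2 and 3. The groups did not overlap, with RPM replicate 11 the highest RPM tumour and RPR2 replicate 3 the lowest RPR2 tumour. The log2 difference was -2.85 ± 0.396 (limma, Benjamini-Hochberg adjusted p = 5.61e-05; exact permutation p = 0.00549).

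The value of Anxa11 depends on how reads were shared between it and near-identical copies. The predicted gene Gm2260 matches its transcripts at 100% over 657 bases, and Gm2274 at 99.7% over 609 bases. Gm2260 was listed at 1.44 to 8.19 FPKM in RPM, against 33.2, 64.0 and 14.3 in RPR2, and thus stood in the same order of groups as Anxa11. Gm2274 was listed at 0 to 3.68 FPKM in RPM, against 0 in each RPR2 tumour. With the FPKM of both copies added, an alternative chosen after seeing the data, the log2 difference was -2.89 (limma, adjusted p = 6.87e-05). The antisense gene Anxa11os was listed at 0 in all 14 tumours.

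Anxa7 encodes annexin A7, or synexin, first known from bovine adrenal medulla as a protein that makes secretory granules aggregate. The gene (ENSMUSG00000021814) lies at chr14:20455260-20480133 on the minus strand. Its level was 7.55 to 14.4 FPKM in RPM (median 11.6), against 31.4, 42.6 and 47.8 FPKM in RPR2 replicates 1, 2 and 3. The RPM tumours lay close together, with the smallest coefficient of variation of the 10 members in RPM (19.3%), and all were below RPR2. The mean was 11.3 ± 2.18 FPKM in RPM and 40.6 ± 8.35 FPKM in RPR2, a log2 difference of -1.76 ± 0.190 (limma, Benjamini-Hochberg adjusted p = 5.47e-06; exact permutation p = 0.00549).

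Anxa5 encodes annexin A5, which binds phosphatidylserine with high affinity and forms a lattice on membranes. The gene (ENSMUSG00000027712) lies at chr3:36448923-36475894 on the minus strand. It stood at 26.0 to 96.5 FPKM in RPM (median 49.1), against 128, 112 and 164 FPKM in RPR2 replicates 1, 2 and 3. The gap between the groups was narrow, since the lowest RPR2 tumour was 1.16 times RPM replicate 5. The mean was 51.4 ± 18.9 FPKM in RPM and 135 ± 26.4 FPKM in RPR2, a log2 difference of -1.43 ± 0.289 (limma, Benjamini-Hochberg adjusted p = 0.00116; exact permutation p = 0.00549). For the 5 genes without overlap the direction and the call were kept in all 26 alternatives, among them each of the 14 tumours left out in turn.

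Anxa3 and Anxa2 were called lower, but the calls rested on RPR2 replicate 3. Annexin A3 is known in human neutrophils, where it sits on granules. Anxa3 (ENSMUSG00000029484, chr5:96793339-96845966, plus strand) stood at 4.74 to 37.4 FPKM in RPM (median 13.9), against 31.7, 36.9 and 186 FPKM in RPR2 replicates 1, 2 and 3. RPR2 replicates 1 and 2 lay within the RPM range, below RPM replicate 1, and 10 of 11 RPM tumours were below all RPR2 tumours. The log2 difference was -1.98 ± 0.565 (limma, Benjamini-Hochberg adjusted p = 0.0113; exact permutation p = 0.0165). Without RPR2 replicate 3 it was -1.18, and the call was lost (limma, adjusted p = 0.0986). The call of Anxa3 passed the threshold in 25 of 26 alternatives, all except that one.

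Annexin A2 forms a complex with S100a10 that binds plasminogen and its activator at the cell surface. Anxa2 (ENSMUSG00000032231, chr9:69453620-69491795, plus strand) stood at 35.0 to 181 FPKM in RPM (median 80.8), against 138, 110 and 520 FPKM in RPR2 replicates 1, 2 and 3. RPR2 replicates 1 and 2 lay inside the RPM range, while replicate 3 was far above every other tumour. The mean was 93.1 ± 39.0 FPKM in RPM and 256 ± 229 FPKM in RPR2, and the log2 difference was -1.21 ± 0.443 (limma, Benjamini-Hochberg adjusted p = 0.0404; exact permutation p = 0.0495). Without RPR2 replicate 3 the log2 difference was -0.52 (limma, adjusted p = 0.324). The call also passed the threshold in only 15 of 26 alternatives, and leaving out RPM replicate 2, 3, 8, 9 or 10 took it to an adjusted p of 0.0548 to 0.0557 (limma).

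Anxa6 did not pass the test. Annexin A6 is known for a duplicated core and for acting in endocytosis, cholesterol traffic and membrane repair. Anxa6 (ENSMUSG00000018340, chr11:54979108-55033445, minus strand) stood at 32.2 to 95.3 FPKM in RPM (median 45.3), against 45.3, 53.4 and 70.3 FPKM in RPR2 replicates 1, 2 and 3. All RPR2 values lay within the RPM range, whose highest tumour was RPM replicate 9, the one with another sample code. The log2 difference was -0.19 ± 0.272 (limma, Benjamini-Hochberg adjusted p = 0.613; exact permutation p = 0.527), and -0.28 without RPM replicate 9 (limma, adjusted p = 0.332).

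Anxa8 and Anxa9 were the least abundant members. Annexin A8 is known in human cells as an annexin of late endosomes. Anxa8 (ENSMUSG00000021950, chr14:34085981-34100571, plus strand) stood at 0 to 6.74 FPKM in RPM (median 1.77), against 0.65, 1.05 and 0.69 FPKM in RPR2 replicates 1, 2 and 3. It was listed at 0 in RPM replicates 4 and 6, so that RPM tumours lay on both sides of RPR2: 8 were above all RPR2 tumours and 3 below. The log2 difference was 0.62 ± 0.538 (limma, Benjamini-Hochberg adjusted p = 0.377; exact permutation p = 0.330).

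Annexin A9 is known in humans for lacking the usual calcium-binding residues of its core. Anxa9 (ENSMUSG00000015702, chr3:95296096-95307176, minus strand) stood at 0.45 to 2.39 FPKM in RPM (median 1.10), against 0.97, 1.70 and 2.58 FPKM in RPR2, and the groups overlapped. The log2 difference was -0.24 ± 0.247 (limma, Benjamini-Hochberg adjusted p = 0.474; exact permutation p = 0.363). Its ends overlap Mindy1 on the opposite strand (13.9 to 59.5 FPKM) and 6330562C20Rik on the same strand (0.55 to 2.35 FPKM), so that its low value is uncertain. The other annexin genes of the table were too low to be tested. Anxa10 stood at 0 to 0.14 FPKM in RPM, against 1.79, 0.16 and 0.41 in RPR2, and Anxa13 at 0 to 0.18 in RPM, against 0, 0 and 0.15 in RPR2.

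**Figure D2:**
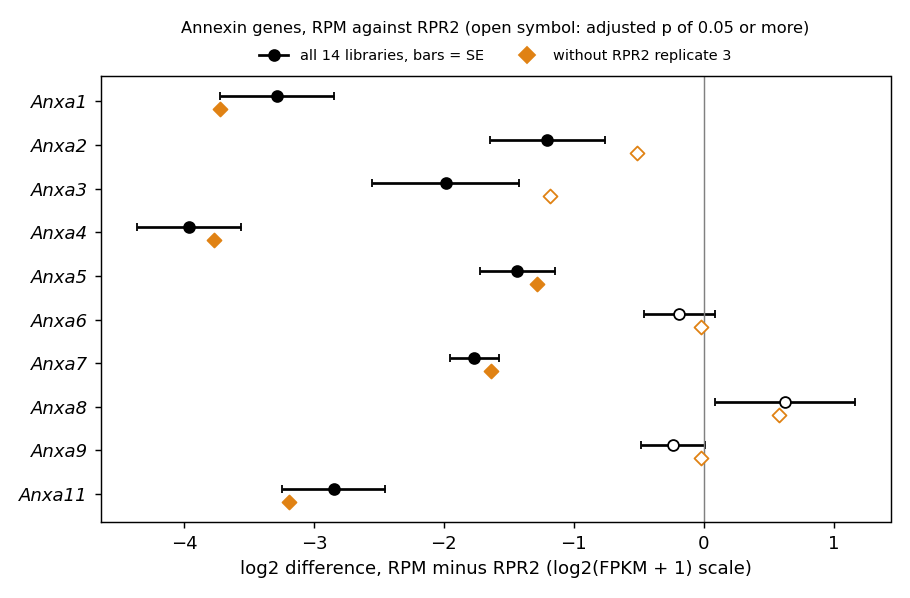
Log2 difference (RPM minus RPR2, log2(FPKM + 1)) of each annexin gene with all 14 tumours (circles, bars show the SE) and (diamonds, no bars) without RPR2 replicate 3; open symbols mark an adjusted p of at least 0.05. Anxa4, Anxa1 and Anxa11 lie farthest below 0, and Anxa2 and Anxa3 move toward 0 without RPR2 replicate 3 (to -0.52 and -1.18).

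The family also differed in its make-up. FPKM is a level per transcript length, so that the members can be summed within a tumour. The 10 members summed to 136 to 459 FPKM in RPM (median 292), against 879, 1165 and 1421 FPKM in RPR2 replicates 1, 2 and 3, and the groups did not overlap. Anxa2 made up 32.9% ± 6.69 of the sum in RPM (SD, n = 11), against 15.7%, 9.45% and 36.6% in RPR2. It was the largest member in every RPM tumour except RPM replicates 6, 9 and 10, in which Anxa6 was the largest with 27.3%, 31.7% and 24.6%. Anxa6 held 9.38% to 31.7% of the sum in RPM, against 5.16%, 4.58% and 4.95% in RPR2, while its own level did not pass the test. Anxa4 held 1.66% to 5.77% in RPM, against 19.8%, 12.6% and 17.0% in RPR2, so that the ranges were apart. Anxa1 held 5.62% to 18.8% in RPM, against 32.1%, 48.9% and 11.2% in RPR2, of which the share in RPR2 replicate 3 fell inside the RPM range. Anxa5, at 12.0% to 22.3% in RPM, against 14.6%, 9.59% and 11.5% in RPR2, was a large member in both models. These shares are descriptions and were not tested.

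In RPM the levels ran in the order Anxa2, Anxa5, Anxa6, Anxa1, Anxa3, Anxa7, Anxa4, Anxa11, Anxa8 and Anxa9. Neighbours that did not differ beyond the SD of their difference over the 11 tumours were Anxa5 and Anxa6, Anxa6 and Anxa1, Anxa3 and Anxa7, Anxa7 and Anxa4, and Anxa8 and Anxa9. In RPR2 the order began with Anxa1, Anxa2 and Anxa4 and ended with Anxa9 and Anxa8. Only the steps from Anxa4 to Anxa5, from Anxa7 to Anxa9 and from Anxa9 to Anxa8 exceeded the SD over the 3 RPR2 tumours.

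**Figure D3:**
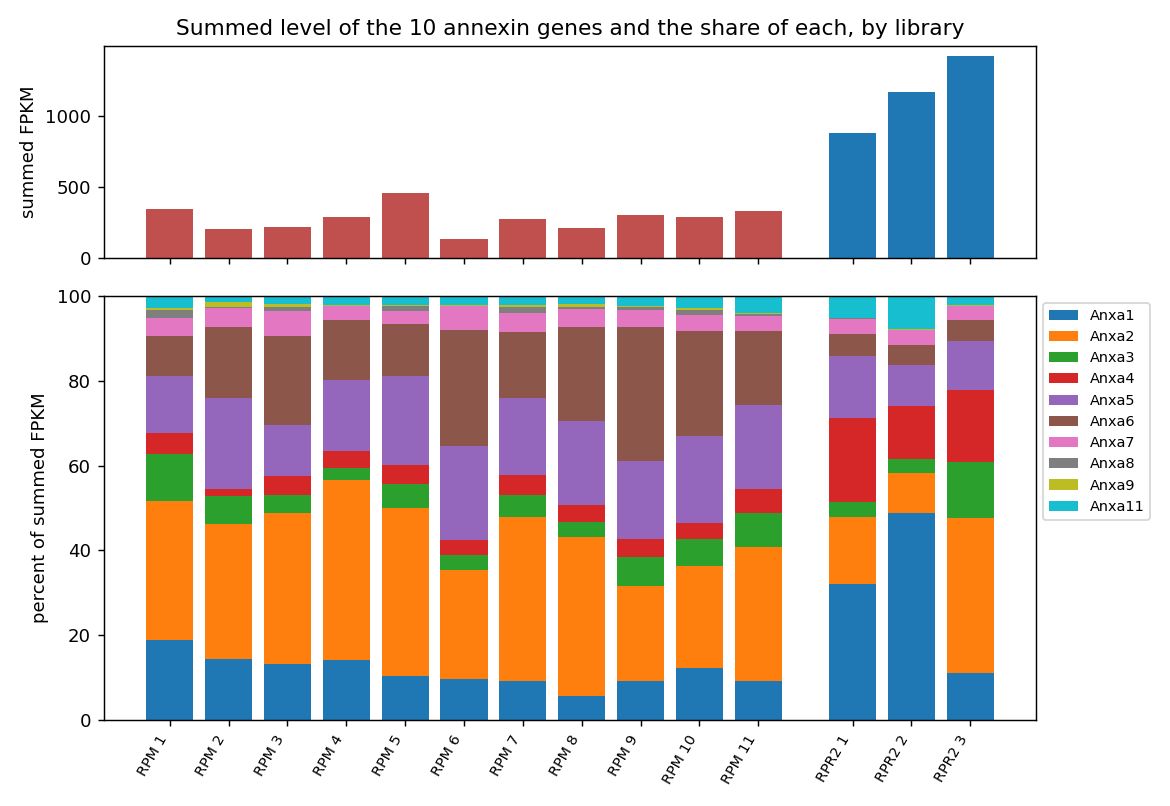
Summed FPKM of the 10 annexin genes per tumour (upper panel) and the share of each gene in that sum in % (lower panel, 1 stacked bar per tumour), RPM left of RPR2. Anxa2 (32.9% on average) and Anxa6 (19.3%) fill a large part of the RPM bars, and Anxa1 and Anxa4 fill a large part of the bars of RPR2 replicates 1 and 2 (32.1% and 48.9% for Anxa1).

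Several other cell types of the lung express annexins, and in bulk tumours fewer cells of a type and less RNA per cell cannot be told apart. The 8 epithelial markers (Epcam, Cdh1, Krt8, Krt18, Krt19, Cldn3, Cldn4 and Cldn7) moved with the annexins: all 8 were lower in RPM, and they summed to 4.81 to 207 FPKM in RPM (median 36.5), against 2538, 2762 and 2063 in RPR2. Among them Krt19 and Cldn4 were each listed at 0 in 1 RPM tumour, and Cldn7 in 2. RPR2 replicates 1 and 2 had the highest epithelial sums and also the highest neuroendocrine sums (3386 and 4408 FPKM). Whether tumour cells or other lung cells carried the epithelial markers was not tested. All 8 alveolar type 2 markers were lower as well, with sums of 148 to 1425 FPKM in RPM, against 1865, 2389 and 51438 in RPR2. Sftpa1, Lamp3 and Slc34a2 were each listed at 0 in 3 RPM tumours. Alveolar type 1 markers, of which 4 of 8 were lower, summed to 22.4 to 239 FPKM in RPM, against 200, 273 and 737 in RPR2, and club and ciliated cell markers, of which 3 of 6 were lower, to 5.89 to 1536 in RPM, against 3473, 25540 and 840 in RPR2. The part of tumour cells and of other lung cells in the annexin differences was not tested.

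For all these marker counts the background is the 22.8% of all genes tested that were lower and the 18.4% that were higher. The counts were not tested against it. Of the 8 endothelial markers 2 were lower, Vwf and Tek, and 0 higher. Vwf, which encodes von Willebrand factor and was chosen after its values were seen, carried their sum, at 1.02 to 14.3 FPKM in RPM, against 238, 329 and 28.3 in RPR2. The other 7 summed to 26.6 to 85.1 FPKM in RPM, against 76.3, 64.3 and 29.9 in RPR2, so that the groups overlapped, and with Vwf the sums were 29.9 to 90.5 in RPM, against 314, 394 and 58.2 in RPR2. Macrophage markers summed to 97.3 to 245 FPKM in RPM, against 141, 87.9 and 252 in RPR2, and neutrophil markers to 1.30 to 35.0 in RPM, against 6.31, 8.84 and 22.7 in RPR2, with 0 of 7 and 0 of 5 tested markers called by limma. Fibroblast markers summed to 190 to 443 FPKM in RPM, against 289, 183 and 132 in RPR2, with 5 of 8 higher and 1 lower, and smooth muscle markers to 112 to 250 in RPM, against 42.1, 30.1 and 43.0 in RPR2, with 4 of 6 higher. Basal and squamous markers were near 0, at 0.06 to 5.04 FPKM in RPM, against 0.10, 0.07 and 1.91 in RPR2.

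Genes for proteins that bind annexins, receive their signals or are linked to such proteins moved partly with the annexins. Of 15 such genes 12 were tested, of which 6 were lower in RPM and 0 higher, with a median log2 difference of -0.99. S100a11, the S100 partner of annexin A1, was at 54.1 to 193 FPKM in RPM, against 246, 340 and 1650 in RPR2 (log2 difference -2.18, limma adjusted p = 0.00229). Sri, which encodes sorcin, a calcium-binding partner of annexin A7, was at 15.9 to 35.6 FPKM in RPM, against 67.7, 83.1 and 117 in RPR2 (-1.86, limma adjusted p = 3.15e-05). Pef1, which encodes peflin, the partner of ALG-2, was at 19.7 to 29.9 FPKM in RPM, against 59.5, 59.0 and 44.1 in RPR2 (-1.03, limma adjusted p = 4.51e-05). The groups did not overlap for any of these 3 genes.

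Ahnak, a giant scaffold protein that binds annexin A2 with S100a10, was lower (log2 difference -1.38, limma adjusted p = 0.0199), but lost the call without RPR2 replicate 2 (-1.24, limma adjusted p = 0.0900), when title numbers entered as a random effect (-1.34, limma adjusted p = 0.0546) and under quantile normalization (-1.08, limma adjusted p = 0.0513). The others called lower, Fpr2, a receptor for annexin A1, and Pla2g4a, a cytosolic phospholipase, rested on RPR2 replicate 3: without it their log2 differences were -0.59 (limma adjusted p = 0.181) and -0.38 (limma adjusted p = 0.327). Pla2g4a also lost its call without RPM replicate 2, 3, 6, 8, 9 or 11 or RPR2 replicate 2, and when title numbers entered as a random effect (-0.97, limma adjusted p = 0.0911). The same held with either other pseudocount, no filter, median-of-ratios scaling, quantile normalization and LSL/LSL tumours only (limma adjusted p = 0.0552 to 0.153). Fpr2 lost its call with array weights as well (-0.51, limma adjusted p = 0.0791). Under the same weights S100a4 was called higher in RPM (1.37, limma adjusted p = 0.00408). S100a10 itself was at 19.2 to 125 FPKM in RPM, against 63.8, 65.0 and 217 in RPR2, and its log2 difference of -0.63 did not pass the test (limma adjusted p = 0.367). The ratio of Anxa2 to S100a10 was 0.611 to 3.50 in RPM, against 2.17, 1.69 and 2.39 in RPR2, and the groups overlapped. S100a10, S100a6 and Pdcd6, which encodes the calcium sensor ALG-2 that binds annexin A11, S100a4, Plat and Plgrkt did not pass the test.

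Genes of plasma membrane repair, in which annexins act with calpains and the ESCRT machinery, were lower in 7 of 13 tested members and higher in 1, with a median of -0.79. Chmp4b, an ESCRT subunit, was at 72.4 to 90.3 FPKM in RPM, against 139, 125 and 159 in RPR2 (log2 difference -0.81, limma adjusted p = 6.06e-05). Smpd1, acid sphingomyelinase, was at 10.7 to 14.8 FPKM in RPM, against 22.4, 24.85 and 22.95 in RPR2 (-0.83, limma adjusted p = 0.000134). Capns1, the small calpain subunit, was at 71.3 to 104 FPKM in RPM, against 151, 148 and 267 in RPR2 (-1.07, limma adjusted p = 0.000256), and the groups did not overlap for these 3 genes. Ehd1, a membrane-remodelling ATPase, was the gene that was higher, at 16.2 to 26.0 FPKM in RPM, against 10.5, 9.88 and 12.3 in RPR2 (0.81, limma adjusted p = 0.000754). Capn1, Capn2, Myof and Pdcd6ip were the others called lower. Myof lost its call without RPR2 replicate 3 (-0.67, limma adjusted p = 0.182) or 2 (-1.22, limma adjusted p = 0.0546). Capn2 lost its call without RPR2 replicate 1 or 2, and Pdcd6ip likewise without either. Myof also lost it with no filter and quantile normalization (limma adjusted p = 0.0516 and 0.123). Capn2 also lost it with no filter, TPM scaling and LSL/LSL tumours only (limma adjusted p = 0.0553, 0.0672 and 0.0569).

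Annexin A5 and its relatives bind phosphatidylserine, and the genes that place this lipid moved in part. Of 10 genes 4 were lower and 0 higher, with a median of -0.81. Plscr1, a phospholipid scramblase, was at 1.61 to 7.25 FPKM in RPM, against 16.5, 29.0 and 24.6 in RPR2 (log2 difference -2.30, limma adjusted p = 6.29e-05). The other 3 are parts of flippases, which return phosphatidylserine to the inner leaflet rather than expose it. They were Atp11a (-2.62, limma adjusted p = 9.54e-05), Atp8a1 (-2.20, limma adjusted p = 0.00335) and their shared subunit Tmem30a (-1.28, limma adjusted p = 0.000418). Of 9 tested genes for bridging proteins and receptors that recognise phosphatidylserine, 1 was lower, Pros1, which encodes protein S (-1.43, limma adjusted p = 0.00511), and 0 were higher, with a median of -0.14. Without RPR2 replicate 3, Ano6 and Plscr4, both linked to scrambling of phospholipids, and Adgrb1, a phosphatidylserine receptor, were called lower too (limma adjusted p = 0.0384, 0.00104 and 2.54e-05 in that order), as was Vps4b of the repair list (limma adjusted p = 0.0373). The shares of all genes tested that were called, given above, are the background for these counts, and the counts were not tested against it.

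**Figure D4:**
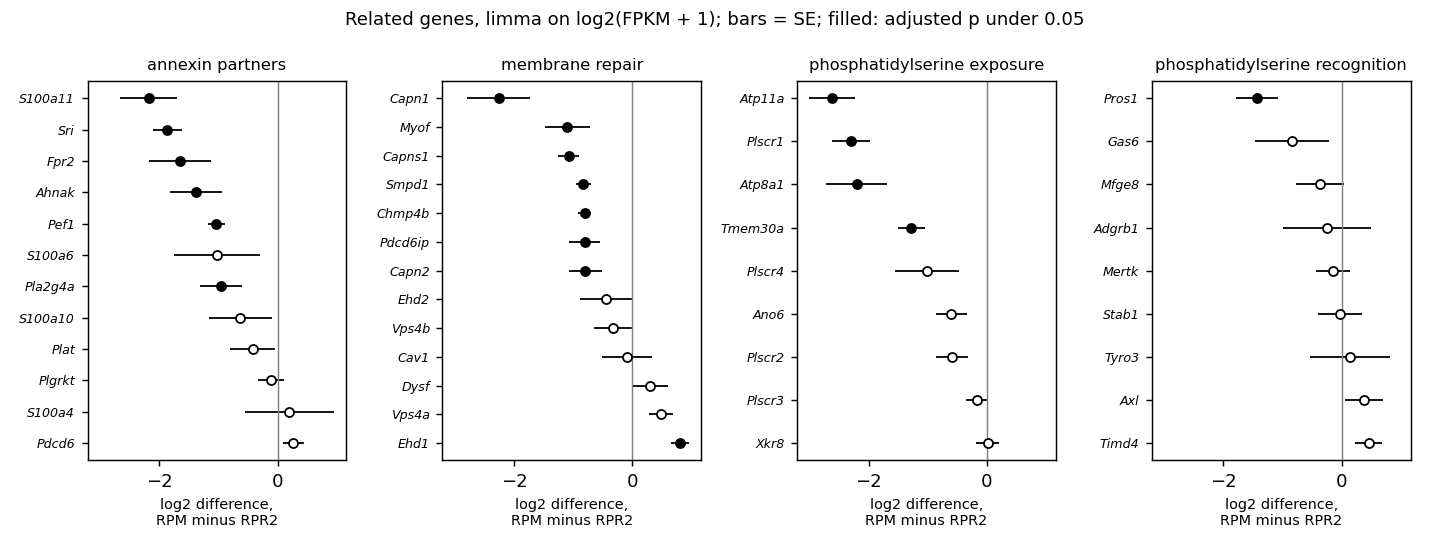
Log2 difference (RPM minus RPR2, log2(FPKM + 1)) of genes tested in 4 related lists, 1 point per gene with its SE, and open symbols for an adjusted p of at least 0.05. Most filled points lie below 0, and Ehd1 (0.81) is the filled point above it.

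Within RPM, the annexins also varied from tumour to tumour. Anxa8 apart, which was listed at 0 in some tumours, the highest over the lowest RPM tumour ranged from 1.91 for Anxa7 to 7.88 for Anxa3. RPM replicate 6 had the smallest sum (136 FPKM) and was lowest or equal lowest for Anxa2, Anxa3, Anxa7, Anxa8, Anxa9 and Anxa11. RPM replicate 5 had the largest sum (459 FPKM) and was highest for Anxa2, Anxa4 and Anxa5, and RPM replicate 1 was highest for Anxa1, Anxa3, Anxa7 and Anxa8. The summed epithelial markers were 11.7 FPKM in RPM replicate 6, 207 in RPM replicate 5 and 121.5 in RPM replicate 1, and the summed neuroendocrine markers 1612, 294 and 703 FPKM in the same order. The annexins did not follow the epithelial sum in every tumour. RPM replicate 4 had the smallest epithelial sum of the RPM tumours (4.81 FPKM), but its annexin sum was the RPM median (292 FPKM). Its neuroendocrine markers summed to 1229 FPKM. The part of other cells in this variation was not tested.

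Relations among the members were tested over the 11 RPM tumours in log2(FPKM + 1), for 45 pairs, by permutation (100000 permutations, two-sided) with Benjamini-Hochberg adjustment over the pairs. Pearson's r was positive in 40 of 45 pairs, and 10 pairs, all positive, passed an adjusted p of 0.05. Neither count was set beside that of pairs of other genes over these tumours, so that they do not set the annexins apart. Of the 10 pairs, 4 passed by Spearman's rho as well. They were Anxa4 with Anxa11 (r = 0.90, adjusted permutation p = 0.00270; rho = 0.90, adjusted permutation p = 0.0157), Anxa7 with Anxa8 (r = 0.88, adjusted permutation p = 0.0110; rho = 0.82, adjusted permutation p = 0.0470), Anxa3 with Anxa11 (r = 0.82, adjusted permutation p = 0.0287; rho = 0.81, adjusted permutation p = 0.0470) and Anxa5 with Anxa11 (r = 0.76, adjusted permutation p = 0.0287; rho = 0.84, adjusted permutation p = 0.0468). Without the 2 tumours farthest from the median of the first gene, r was 0.85, 0.85, 0.77 and 0.82 for the 4 pairs in that order. Tumours that share a title number may not be independent, and with their values averaged over 9 title numbers r was 0.91, 0.88, 0.77 and 0.71. The other 6 pairs fell further without 2 tumours. Anxa1 with Anxa7 had an r of 0.73 with all tumours and 0.42 without 2, Anxa1 with Anxa3 0.76 and 0.52, and Anxa3 with Anxa7 0.78 and 0.55. Anxa3 with Anxa8 had 0.80 with all tumours and 0.61 without 2, Anxa2 with Anxa4 0.77 and 0.62, and Anxa4 with Anxa7 0.80 and 0.68. These 6 relations rested in part on the tumours left out. Anxa6 and Anxa9, neither of which passed the test between the models, had the lowest r of any pair (-0.42).

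**Figure D5:**
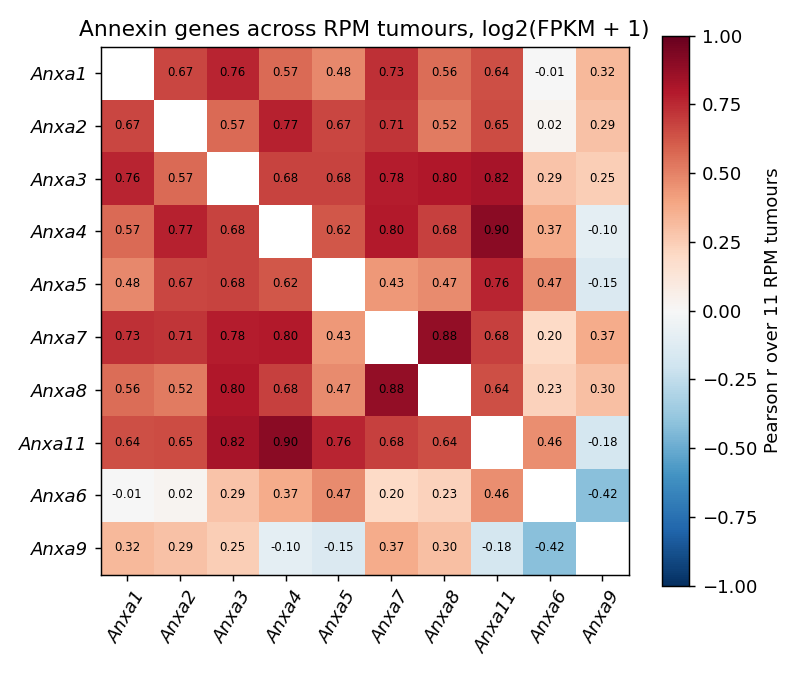
Pearson's r between annexin genes over the 11 RPM tumours (log2(FPKM + 1)), colour from -1 to 1. Anxa4 and Anxa11 (0.90) and Anxa7 and Anxa8 (0.88) are the closest pairs, and Anxa6 with Anxa9 (-0.42) lies at the low end.

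The genes most like each member over the 11 RPM tumours were the 3 with the highest Pearson's r among 12611 genes, for the 9 members with a range of at least 1 log2 unit. This leaves out Anxa7, and since the 3 were picked as the highest, r is a description. Anxa3 had the closest match, Vamp8, a SNARE of endosome and granule fusion (r = 0.98), followed by Ctsh, cathepsin H (0.97), and Eps8l2 (0.95). Anxa4 was closest to Tmem63a, an ion channel opened by stretch (0.98), then Lztfl1 (0.95) and Zfp764 (0.93), and Anxa5 to Tlr2, a receptor for bacterial lipopeptides (0.96), then Ero1lb and Ctnna1. Anxa8 was closest to Arpc1b, an actin-branching subunit (0.96), then Gstm2 and Ogn, and Anxa11 to Cast, calpastatin (0.95), then Foxf1 and Lamp2. Anxa2 was closest to Ddx31 (0.94), then Erlin1 and Lmna, which encodes lamin A/C (0.91). Anxa6 was closest to Stard13 (0.92), then Pcdhgb2 and Phldb1, Anxa9 to Psmb10 (0.92), then Pmpcb and Spata5, and Anxa1 to Zfp36 (0.90), then Slc35f5 and Plaur, the urokinase receptor gene (0.89).

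The Myc allele allowed a second comparison, LSL/LSL (n = 9) against LSL/+ (n = 2) within RPM. No member was called by limma with Benjamini-Hochberg adjustment over 14862 genes, and the groups overlapped for all 10, against 0.00673% of all genes called in either direction (1 gene) and 6.68% wholly higher and 2.68% wholly lower in LSL/LSL. At an unadjusted p under 0.05, 1 member passed, against 17.3% of all genes tested. That member was Anxa8, at 0 to 6.74 FPKM in LSL/LSL (median 2.0), against 0.57 and 0 FPKM in LSL/+, with a log2 difference of 1.39 ± 0.591 (limma, adjusted p = 0.275; exact permutation p = 0.109). That value depends on the pseudocount, and was 2.90 with a pseudocount of 0.1 and 4.25 with 0.01, neither past the threshold (limma, adjusted p = 0.251 and 0.280). Anxa4 followed, at 4.70 to 20.6 FPKM in LSL/LSL (median 12.7), against 3.42 and 11.6 in LSL/+, with a log2 difference of 0.81 ± 0.468 (limma, adjusted p = 0.358; exact permutation p = 0.218). It rested on the LSL/+ tumours, at 0.059 without RPM replicate 2 and 1.57 without RPM replicate 4 (limma, adjusted p = 0.988 and 0.130). The other adjusted p-values from limma ran up to 0.934 for Anxa2, and the median log2 difference was 0.35 over the members and 0.16 over all genes tested. With 2 LSL/+ tumours, these values leave the size of any difference wide.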

How the data were processed

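RNA-seq was measured in 14 tumours, and the genotype labels gave the groups and the source names the Myc allele, with columns matched by title. The authors deposited 1 table of FPKM, a value per gene and tumour. Tools named in the submitters' processing notes, with no roles, are Bowtie 1.0.1 and RSEM 1.2.12, beside the mm10 genome. Libraries were stranded and selected with oligo dT, per the labels' protocols, and read from one end, per the design text. The annotation release, strand use in counting and any scaling across tumours were not given in the sources used here. The RSEM program is known to divide reads that match several genes.

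No counts are given, and depth was estimated from the steps between low values of short genes with 1 annotated transcript. It limits low genes such as Anxa8. Values were analysed as log2(FPKM + 1), which understates the change of low genes. Genes that reached 1 FPKM in 3 or more tumours entered limma 3.58.1 in R 4.3.3 (empirical Bayes with trend, two-sided, Benjamini-Hochberg adjustment, threshold 0.05), with single values by exact permutation. The fit was tested on simulated data. Coordinates are those of GENCODE on GRCm38, and promoters those of RefSeq on GRCm38.p6. The members, lists and tests were chosen with earlier results of these data known. Named genes are the members, the design genes, up to 4 called genes with the smallest p in each related list, and the 3 genes most like each member. Other called genes of a list, and list members that did not pass, are named to complete a count, after their values were seen. A gene of these lists is not reported here by name or plotted, and stays in the counts. Alternatives were other pseudocounts and filters, TPM, median-of-ratios and quantile scaling, array weights, the title number as a random effect, LSL/LSL tumours only, the copies of Anxa11, and each tumour left out.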

Additional observations from a re-analysis of the deposited data

How the results depend on the processing

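In RPM against RPR2, 6 to 7 of the 10 members were called lower under the other settings and 5 to 7 with 1 tumour left out, 5 of them without RPR2 replicate 3, and 0 were higher throughout. For the fits with 1 tumour left out, the share of all genes called is not given here. The call of Anxa2 was lost with no filter (limma adjusted p = 0.0702), median-of-ratios scaling (0.0925), array weights (0.126), the title number as a random effect (0.129) and LSL/LSL tumours only (0.0559). TPM scaling moved the median of all genes tested to -0.23 (log2), with 1878 genes higher and 3588 lower; quantile normalization gave 3657 higher and 3066 lower, median-of-ratios scaling 3361 and 3250, no filter 2657 and 4862, and array weights 4290 and 6577. Under TPM scaling the summed members averaged 398.0 in RPM and 1845 in RPR2. With no filter 1 of the other annexin genes, Anxa10, was called lower. With Vps4a beside Ehd1, membrane repair genes called higher numbered 2 under median-of-ratios and quantile scaling and 1 to 2 with 1 tumour left out, and those called lower 4 to 7, with 4 without RPR2 replicate 2. Of the genes that place phosphatidylserine, 1 was higher under quantile normalization and 0 to 1 with 1 tumour left out, and 1 to 2 of those that recognise it were lower. These list counts leave out array weights, the title number as a random effect and LSL/LSL tumours only. With array weights Dysf (0.66), Axl (1.10) and Timd4 (0.61), among others, were called higher (limma adjusted p = 0.00183, 6.46e-05 and 0.00232). Plgrkt, Vps4b, Ano6, Plscr2, Plscr4 and Adgrb1 were called lower with these weights (limma adjusted p = 2.74e-06 to 0.0354). For LSL/LSL against LSL/+, uncalled differences changed sign for Anxa2 (0.18 under TPM scaling, -0.54 to 0.38 with 1 tumour left out), Anxa5 (-0.13 under median-of-ratios scaling, -0.045 to 0.19) and Anxa9 (-0.63 to 0.059). The cause was not tested. No paired analysis was made, since the groups are different genotypes and the labels name no pairs across them. The labels give no replicate numbers, and the numbers used here follow accession order.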
